A study of Caenorhabditis elegans with 6 samples.

Results

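miR-75 and miR-79 are the microRNAs (miRNAs) of a small seed family of Caenorhabditis elegans. They were chosen by spot name, as all spots whose printed target is miR-75 or miR-79. This gave 2 of the 108 miRNA oligos of the array, or 8 of its 576 spots, 4 for each miRNA. The animals were whole adults of 2 temperature-sensitive germline mutants, fem-3(q20ts) and fem-2(b245ts). Both were grown at 25 °C without further treatment and harvested as adults of day 1, which was 24 hours beyond late L4, the last larval stage. As background, at this temperature the gain-of-function allele fem-3(q20ts) gives a germ line that makes sperm and no oocytes, and the loss-of-function allele fem-2(b245ts) gives one that makes oocytes and no sperm. Neither genotype is a wild type, so a difference between them cannot be assigned to one of the alleles. Per the labels, replicate 1 of each genotype was hybridised to 2 technical arrays and replicate 2 to a single one, which makes 6 arrays for 4 biological samples. The labels do not say whether replicates were grown separately on different days, so p-values measure the spread between these samples.

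A miRNA guides an Argonaute protein to messenger RNAs that pair with its seed, the bases near its 5′ end. miRNAs that share a seed are grouped into a family because they can act on overlapping sets of targets, while the remaining bases and the place of expression can set them apart. miR-75 and miR-79 share their seed. miR-79 is counted as a relative of vertebrate miR-9 and is known to act in the epidermis of the worm, where it represses genes of glycan synthesis and so affects the migration of neurons. No function of miR-75 is stated here.

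The genes of the family are unlinked. In the RefSeq table of the WBcel235 assembly, mir-75 (T24D8.8) lies on chromosome X between the coding genes T24D8.6 and F47G3.3. Its nearest miRNA genes there are mir-74 and mir-81. mir-79 (C12C8.4) lies on chromosome I, between the coding genes cbl-1 and lin-41, and overlaps the non-coding RNA gene C12C8.6. lin-41 encodes an RNA-binding protein that is a known target of let-7. Strand was not considered, and the neighbours are given only as positions in the annotation.

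The arrays carried 1 colour, Cy3 ligated to gel-purified short RNA. All 6 had been scaled by the depositors to the same total intensity, and the median spot intensity ranged from 101 to 178. The 95th percentile of the 32 Buffer spots, used here as the level above which a spot was read as signal, was 36.5, 41.5 and 19.0 on the 3 fem-3(q20ts) arrays. On the 3 fem-2(b245ts) arrays it was 127, 114 and 21.5, so the arrays of fem-2(b245ts) replicate 1 had the highest level. Of the 108 miRNA oligos, 94 passed a filter on mean signal over the 4 samples, and miR-75 and miR-79 were among them. Both exceeded the Buffer level on each of the 6 arrays, so that none of their own values is a bound.

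miR-79 gave more signal on every fem-3(q20ts) array than on any fem-2(b245ts) array, but the difference did not pass the test over all miRNAs. Its intensity, the mean of 4 spots on the log scale, was 1306 and 1218 on the 2 arrays of fem-3(q20ts) replicate 1 and 972 on that of replicate 2. In fem-2(b245ts) it was 437 and 593 on the arrays of replicate 1 and 722 on that of replicate 2. The lowest fem-3(q20ts) array thus stood above the highest fem-2(b245ts) array, as it did for 15 of the 94 miRNAs that passed the filter (16%). Single spots overlapped slightly, the dimmest fem-3(q20ts) spot reading 838 and the brightest fem-2(b245ts) spot 879. These signals were 29.3 to 51.1 times the Buffer level on the fem-3(q20ts) arrays and 3.44 to 33.6 times on the fem-2(b245ts) arrays.

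miR-75 did not separate the genotypes. Its intensity was 935 and 871 on the arrays of fem-3(q20ts) replicate 1 and 1251 on that of replicate 2. In fem-2(b245ts) it was 759 and 591 on the arrays of replicate 1 and 1090 on that of replicate 2. The fem-2(b245ts) array of replicate 2 lay above both fem-3(q20ts) arrays of replicate 1, so the groups overlapped. In each genotype the replicate 2 array was the brightest for miR-75. The signal was 21.0 to 65.8 times the Buffer level on the fem-3(q20ts) arrays and 5.19 to 50.8 times on the fem-2(b245ts) arrays.

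**Figure D1:**
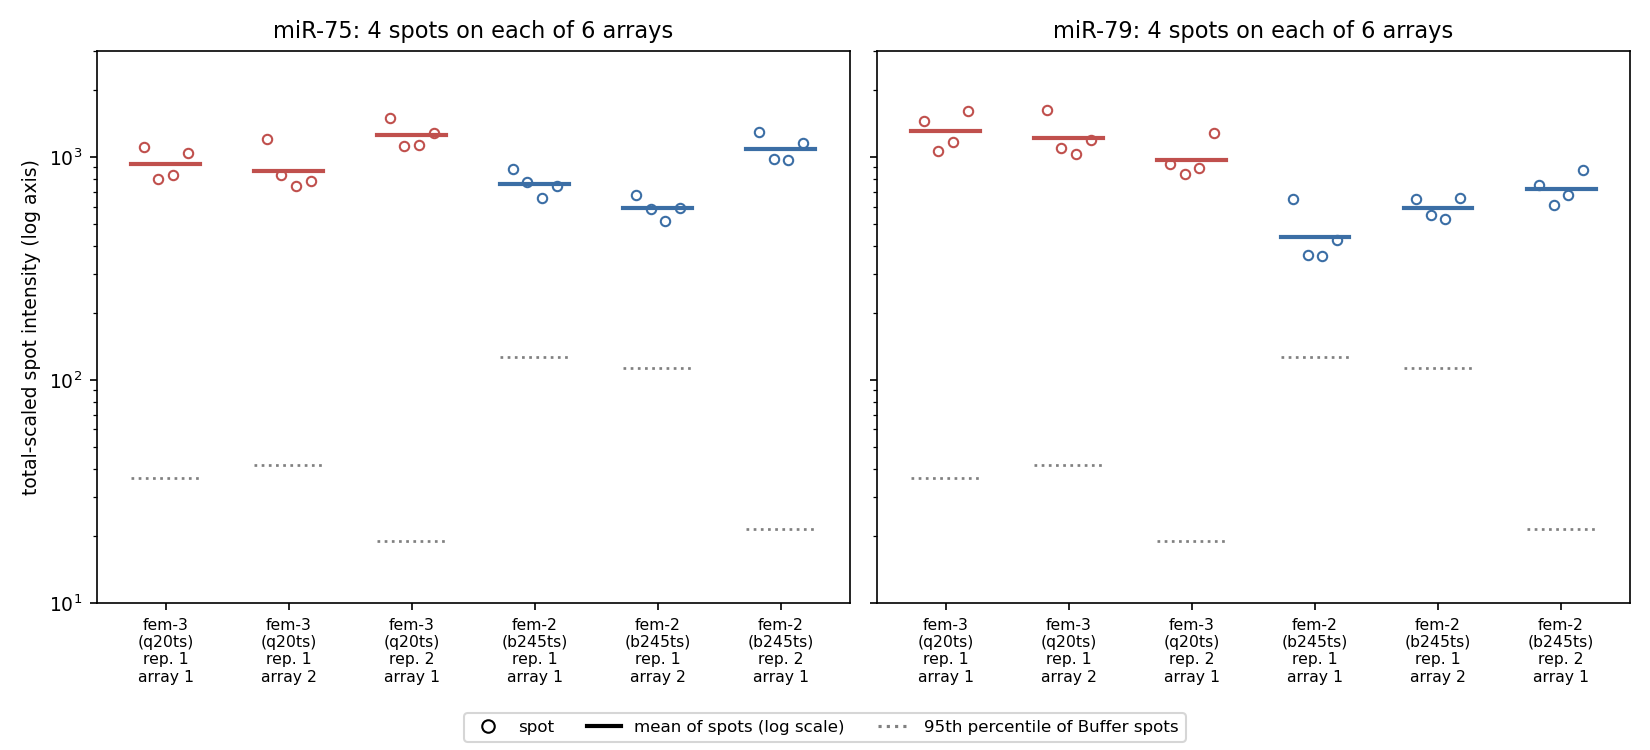
Total-scaled intensity (log axis) of the 4 spots of miR-75 (left panel) and miR-79 (right panel) on each array, with fem-3(q20ts) in red and fem-2(b245ts) in blue. Thick lines are the mean of the 4 spots on the log scale and dotted lines the 95th percentile of that array's Buffer spots. For miR-79 the 3 fem-3(q20ts) means, 972 to 1306, lie above the 3 fem-2(b245ts) means, 437 to 722. Such a separation was seen for 15 of the 94 tested miRNAs (16%). For miR-75 the means of the genotypes overlap.

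Averaged over the biological samples, miR-79 stood at 1117 ± 204 in fem-3(q20ts) and 615 ± 150 in fem-2(b245ts) (SD, n = 2 biological samples each). The log2 difference, fem-3(q20ts) minus fem-2(b245ts), was 0.87 (SE 0.35, 95% interval -0.02 to 1.76), a 1.83-fold higher signal, and it did not pass in limma with Benjamini-Hochberg adjustment over the 94 miRNAs (adjusted p = 0.379). miR-75 stood at 1077 ± 246 in fem-3(q20ts) and 880 ± 297 in fem-2(b245ts) (SD, n = 2 each). Its log2 difference of 0.31 (SE 0.39, 95% interval -0.69 to 1.32) was smaller than its standard error and did not pass (limma adjusted p = 0.757). An exact permutation test over the samples, two-sided, gave p = 0.333 for miR-79 and p = 0.667 for miR-75, and 0.333 is the smallest that 2 samples against 2 allow.

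Of the 2 family members, 0 passed the limma threshold of 0.05 after adjustment and 0 had an unadjusted p under 0.05. Over all 94 tested miRNAs, 8 passed (8.51%), 1 higher (1.06%) and 7 lower (7.45%) in fem-3(q20ts), and 10 had an unadjusted p under 0.05 (10.6%). The difference of miR-79 was the third highest of the 94, after miR-243 at 1.89 and lin-4 at 1.18, and that of miR-75 was at rank 38. The median difference of the tested miRNAs was 0.14, with the middle 50% between -0.29 and 0.46. miR-79 therefore lay outside that middle range and miR-75 inside it. Samples without overlap and higher in fem-3(q20ts), as for miR-79, were seen for 25 of the 94 miRNAs (26.6%), and arrays without overlap in that direction for 15 (16%). The separation of miR-79 by array was thus shared with a sizeable part of the miRNAs.

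**Figure D2:**
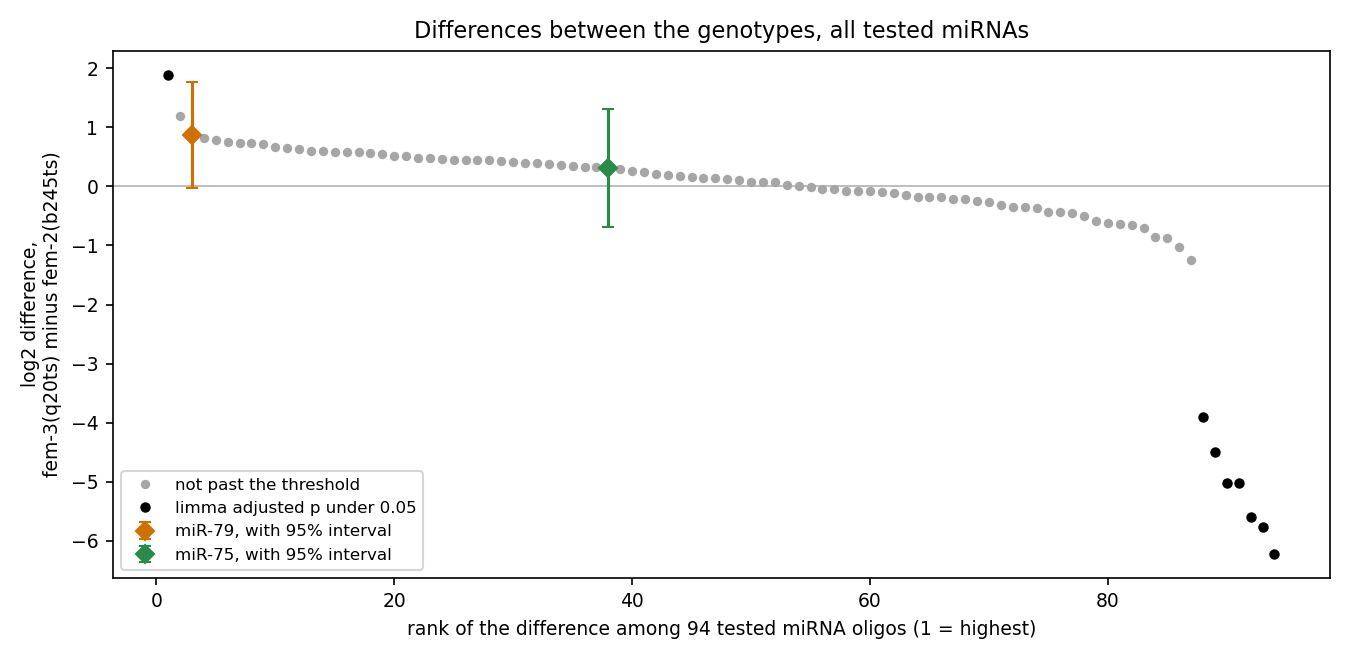
Log2 difference between the genotypes, fem-3(q20ts) minus fem-2(b245ts), of the 94 tested miRNA oligos, ordered from the highest to the lowest. Black points passed the limma threshold and grey points did not. The diamonds, with 95% intervals of the limma fit, mark miR-79 at rank 3 (0.87) and miR-75 at rank 38 (0.31), and both intervals include 0.

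The replicates differed in how large the difference was. Within replicate 1, miR-79 was higher in fem-3(q20ts) by 1.31 on the log2 scale, and within replicate 2 by 0.43. For miR-75 the same log2 differences were 0.43 and 0.20. Both members were thus higher in fem-3(q20ts) in each replicate, as were 44 of the 94 tested miRNAs (46.8%). Descriptions of arrays with the same replicate number hold the same string of digits, which may be a date. What it marks is not stated, so biological replicate and set of arrays cannot be told apart.

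The members moved in different ways between the replicates. In fem-3(q20ts), miR-79 was 0.38 higher in replicate 1 than in replicate 2 on the log2 scale, whereas in fem-2(b245ts) its value in replicate 1 minus replicate 2 was -0.50. Such opposite signs, positive in fem-3(q20ts) and negative in fem-2(b245ts), were found for 14 of 94 miRNAs (14.9%). miR-75 had -0.47 in fem-3(q20ts) and -0.70 in fem-2(b245ts). Negative values in both genotypes were found for 52 of 94 miRNAs (55.3%), so the pattern of miR-75 was the common one.

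Technical arrays of one RNA sample differed little in fem-3(q20ts), by 0.10 on the log2 scale for each of miR-79 and miR-75. In fem-2(b245ts) they differed by 0.44 for miR-79 and by 0.36 for miR-75. The medians over the tested miRNAs were 0.24 in fem-3(q20ts) and 0.41 in fem-2(b245ts), so miR-75 and miR-79 repeated more closely than the median miRNA in fem-3(q20ts) and about as well as it in fem-2(b245ts). Between biological replicates, the difference in either direction was 0.38 for miR-79 and 0.47 for miR-75 in fem-3(q20ts), against a median of 0.42. In fem-2(b245ts) it was 0.50 for miR-79 and 0.70 for miR-75, against a median of 0.48. The log2 difference of miR-79 between the genotypes exceeded its spread between replicates in either genotype, and that of miR-75 did not. The same held for miR-86 and miR-80, though not for miR-88, all described below, so it is not particular to miR-79. Its share over the tested miRNAs was not counted.

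Spot by spot, all printed copies of both miRNAs gave a positive difference, of varying size. For the 4 spots of miR-79 in print order, the log2 difference between the genotypes was 0.78, 0.87, 0.87 and 0.97. For miR-75 it was 0.40, 0.23, 0.32 and 0.30. These spots share the hybridised RNA and are not replicates of a genotype. In the scanner files of the 4 arrays of replicate 1, 0 of the 16 spots of either miRNA held saturated pixels. The local background around the spots of miR-79 had a median of 219 scanner units on the fem-3(q20ts) arrays and 222.5 on the fem-2(b245ts) arrays. Around those of miR-75 it was 223.5 on the fem-3(q20ts) arrays and 219 on the fem-2(b245ts) arrays. These medians differed little between the genotypes, but those of fem-2(b245ts) pool unlike arrays. Around miR-79, all spots of its array 1 lay above 222.5, and those of array 2 read 208 to 210. The fem-3(q20ts) spots of miR-79 lay between them. Around miR-75, all spots of array 1 lay above 219, and those of array 2 read 205 to 207. Array 1 had the lowest miR-79 intensity of all arrays, whereas miR-75 was lowest on array 2. A part of the background in these intensities was not tested. Scanner units precede the scaling of the arrays, so they cannot be set beside the Buffer levels given above.

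The family members were also compared with each other within each array, where a factor that scales a whole array cancels. Levels of different oligos cannot be set against each other, so only the change of this quantity between the genotypes was read. The log2 value of miR-79 minus miR-75 was 0.48 in fem-3(q20ts) replicate 1 and -0.36 in replicate 2, against -0.40 in fem-2(b245ts) replicate 1 and -0.60 in replicate 2. The genotypes did not overlap, but fem-3(q20ts) replicate 2 lay close to fem-2(b245ts) replicate 1. By array, fem-2(b245ts) replicate 1 gave -0.80 on array 1 and 0.0062 on array 2, and the second of these lay above fem-3(q20ts) replicate 2. The mean difference between the genotypes was 0.56 (two-sided exact permutation p = 0.333, n = 2 samples each, the smallest p possible). A different response of miR-79 and miR-75 was therefore not shown at this number of samples. Without fem-3(q20ts) replicate 1 the value was 0.13, and without fem-3(q20ts) replicate 2 it was 0.98.

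The miRNAs whose pattern over the 4 samples was closest to that of each member were found by the root mean square distance of log2 levels, each centred on its own mean. For miR-79 these were miR-86 (distance 0.18), miR-88 (0.20) and miR-80 (0.21), against a median distance of 0.52 over the tested miRNAs. miR-80 is a relative of bantam of flies. Their log2 differences between the genotypes were 0.66, 0.52 and 0.73 (adjusted p of 0.390, 0.584 and 0.379 in limma). The signal of miR-88 exceeded the Buffer level on 3 of 3 fem-3(q20ts) arrays and on 1 of 3 fem-2(b245ts) arrays. All 3 were higher in fem-3(q20ts) in both replicates without passing the test, as were 44 of the 94 tested miRNAs in direction (46.8%). They were picked for closeness to miR-79 on these same values, so the shared direction follows from the choice.

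For miR-75 the closest were miR-244 (distance 0.064), miR-34 (0.10) and miR-57 (0.12), against a median of 0.41. miR-34 belongs to a family conserved in mammals, and miR-57 is known to act with the Hox gene nob-1 in the tail of the worm. Their log2 differences were 0.24, 0.14 and 0.40 (adjusted p of 0.814, 0.909 and 0.643 in limma). The signal of miR-244 exceeded the Buffer level on 3 of 3 fem-3(q20ts) arrays and on 1 of 3 fem-2(b245ts) arrays. The members were not each other's nearest neighbour: at a distance of 0.41, miR-79 was at place 49 for miR-75 and miR-75 at place 32 for miR-79.

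**Figure D3:**
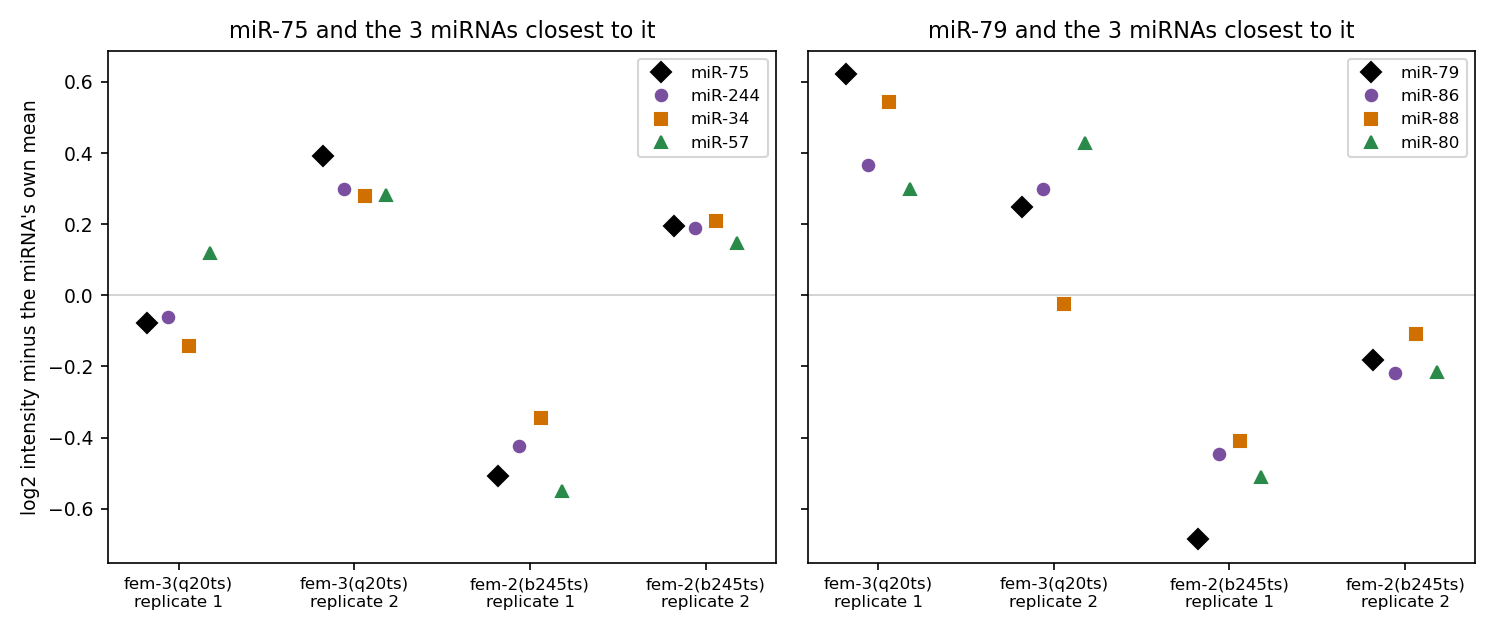
Log2 intensity of each miRNA in the 4 biological samples, minus its own mean over them, for miR-75 and the 3 tested miRNAs closest to it (left) and for miR-79 and the 3 closest to it (right). miR-75 and its neighbours are lowest in fem-2(b245ts) replicate 1, while miR-79 is above its mean in both fem-3(q20ts) samples and below it in both fem-2(b245ts) samples.

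The neighbouring miRNA genes of mir-75 on chromosome X did not follow it in one direction. miR-74 had an intensity of 322 ± 29.5 in fem-3(q20ts) and 454 ± 19.5 in fem-2(b245ts) (SD, n = 2 each), with a log2 difference of -0.50 (SE 0.29; limma adjusted p = 0.489). miR-81 had 3497 ± 741 in fem-3(q20ts) and 2330 ± 190 in fem-2(b245ts), with a log2 difference of 0.57 (SE 0.32; limma adjusted p = 0.489). The miRNA genes nearest to mir-79, mir-8209 and mir-1019, have no oligo on the array. Of the 25 tested miRNAs annotated on chromosome X, 0 passed the limma threshold, 0 had an unadjusted p under 0.05 and 18 had a positive difference, with a median of 0.16, against 54 of all 94 (57.4%) and a median of 0.14. Of the 8 tested on chromosome I, 0 passed, also unadjusted, and 5 had a positive difference, with a median of 0.27, and miR-79 had the largest. Names of 102 of the 108 miRNAs were matched to the annotation.

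RNA of whole animals cannot separate fewer cells of a type from less RNA in each cell. The genotypes differed most in the miRNAs known from oocytes and embryos. All 7 of miR-35 to miR-41 passed lower in fem-3(q20ts) in limma. The smallest log2 difference was -3.90 for miR-35, which exceeded the Buffer level on all arrays. Their summed intensity was 305 to 454 on the fem-3(q20ts) arrays and 9029 to 12794 on the fem-2(b245ts) arrays. In fem-3(q20ts), miR-41 was not above the Buffer level on any array, and miR-37 and miR-40 each exceeded it on 1 of 3 arrays. miR-38 exceeded it on 2 of 3. Fitted differences of miR-37, miR-38, miR-40 and miR-41, such as -6.22 for miR-37, rest on signals near the Buffer level or the floor. They are not exact sizes. The part of miR-35 to miR-41 in the result for miR-79 was not tested, apart from the scaling given below.

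Markers of the epidermis and of other somatic tissues were measured on the same arrays. Of the 5 heterochronic miRNAs known to act in the epidermis, where miR-79 is known to act too, 0 passed in limma, 1 (lin-4) had an unadjusted p under 0.05, and 4 had a positive difference. Their differences ranged from -0.22 to 1.18 (lin-4) with a median of 0.14, the smallest in size being that of miR-241 at 0.07. Their summed intensity was 3957 to 5532 on the fem-3(q20ts) arrays and 2962 to 3989 on the fem-2(b245ts) arrays, which overlapped. Among single markers, the log2 difference was 0.75 for miR-60 of the intestine, 0.42 for miR-228 of glia, 0.41 for miR-124 of neurons and -0.17 for miR-1 of muscle. None of these 4 passed in limma, also unadjusted, and each exceeded the Buffer level on all 6 arrays. The intensity of miR-60 was 566 to 770 on the fem-3(q20ts) arrays and 329 to 470 on the fem-2(b245ts) arrays, without overlap. Arrays without overlap in this direction were seen for 15 of the 94 tested miRNAs (16%). For miR-228, miR-124 and miR-1 the arrays of the genotypes overlapped. The part of these tissues in the signal of miR-79 was not tested.

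How the arrays were scaled moved both members, by the same amount as all miRNAs except under quantile normalization. Scaling to the total of the miRNA spots outside miR-35 to miR-42 gave 0.54 for miR-79 and -0.012 for miR-75. That scaling leaves out miR-35 to miR-41, which differ most, together with miR-42 (log2 difference -1.25). Scaling to the spike control spots gave 1.43 for miR-79 and 0.88 for miR-75. The median difference of all tested miRNAs ranged from -0.19 to 0.70 over these scalings. Relative to that median, miR-79 was at 0.73 and miR-75 at 0.18 under each whole-array scaling. That follows from the shared shift of all miRNAs and is not a separate result. Under quantile normalization, miR-79 was at 1.25 (limma adjusted p = 0.0594) and miR-75 at 0.45, or 0.96 and 0.16 above the median. Over all alternatives the adjusted p of miR-79 ranged from 0.0594 to 0.934.

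The direction of miR-79 held in all 23 alternatives, with differences from 0.54 to 1.43, and it passed the adjusted threshold in 0 of the 22 that gave a test. An unadjusted limma p under 0.05 was reached in 6 of these. That of miR-75 was positive in 21 of 23. Besides the scaling without the miR-35 family, it turned negative when fem-2(b245ts) replicate 1 was left out (-0.038). The counts of direction include alternatives that could not move either difference. These were the other floor percentiles, the changed filters, the trend and robust fit, and the replicate block. Each left miR-79 at 0.87 and miR-75 at 0.31, so they are no check on direction. Fits that left out samples or arrays, or used all 6 arrays, could not turn the sign of miR-79 either. Its array means did not overlap between the genotypes, so these fits show only how the size of its difference moved.

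**Figure D4:**
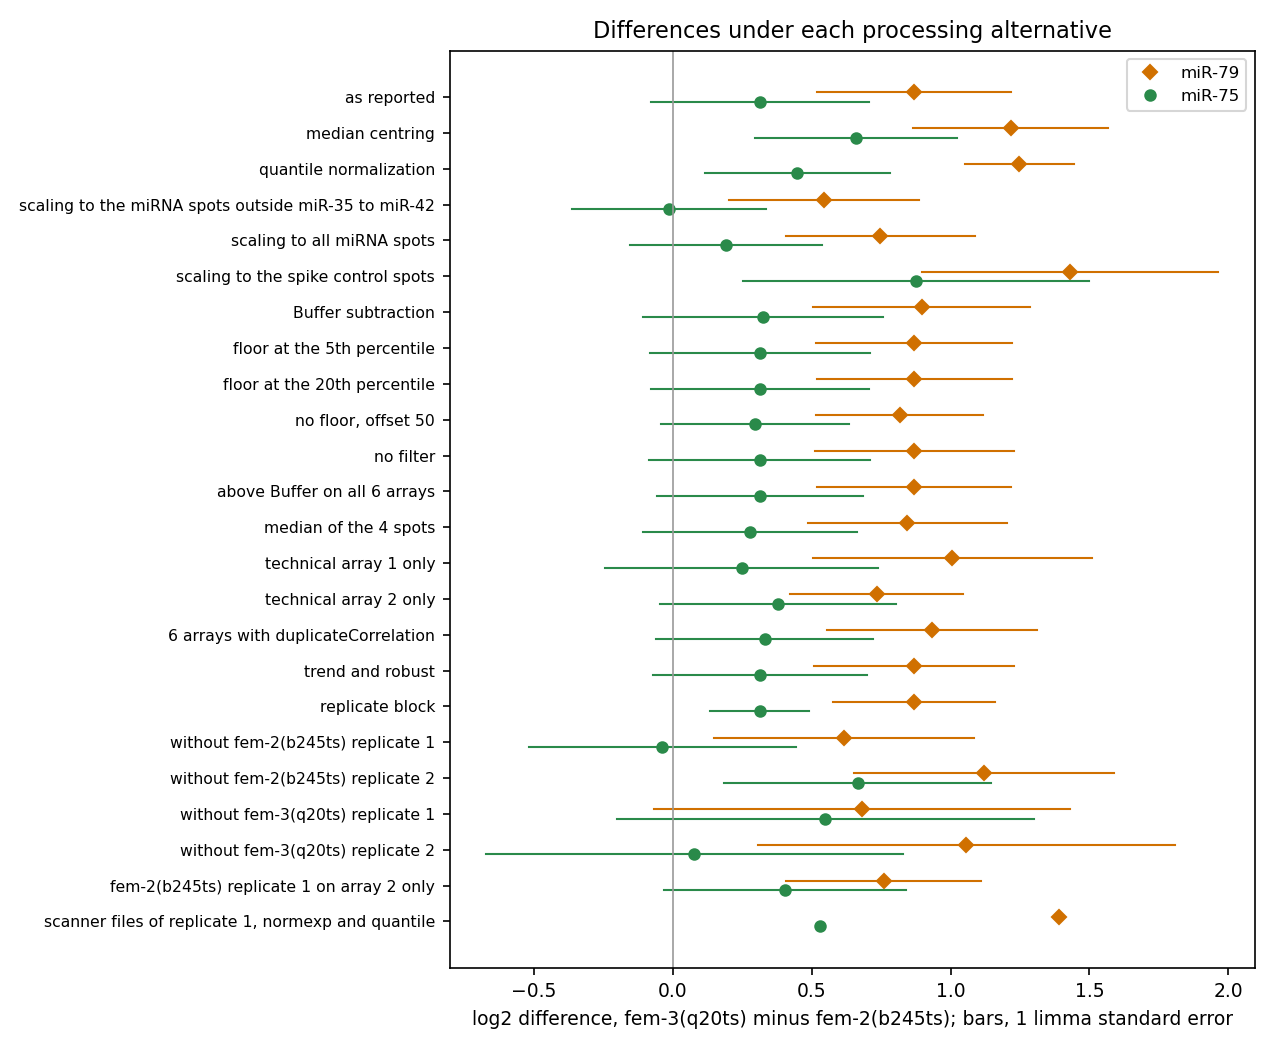
Log2 difference, fem-3(q20ts) minus fem-2(b245ts), of miR-79 (diamonds) and miR-75 (circles) as reported and under each processing alternative. Bars are 1 limma standard error, and the scanner-file setting has none because it used replicate 1 only. miR-79 stays between 0.54 and 1.43, and miR-75 lies just below 0 in 2 settings.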

How the data were processed

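The value table holds linear spot intensity that the authors scaled to one total per array, per the series' design text. In the 4 scanner files (replicate 1), the deposited normalized intensity equalled mean spot intensity minus median background to within 0.005. Per the file headers, these files also give a percent of saturated pixels and a signal-to-noise score for each spot. The scanner software is not given in the sources used here. Arrays of replicate 2 were used with the spot names of replicate 1.

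Values under 12.8, the 10th percentile of positive values, were set to it (0 spots of miR-75 and miR-79 lay below), and all were log2-transformed and averaged over 4 spots, then over technical arrays. Oligos with a mean above 37.2, the average 95th percentile of the Buffer spots, were tested with limma 3.58.1 in R 4.3.3 (lmFit, eBayes, two-sided, Benjamini-Hochberg, 2 residual and 3.05 prior degrees of freedom). A printed intensity is 2 raised to the mean log2 value. Only the limma fit was tested on simulated data, with planted differences larger than those of miR-75 and miR-79. Alternatives kept the same 94 oligos unless the filter changed. The number of arrays limits the precision.

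The family, the lists and the tests were chosen with earlier results of these data known. Named miRNAs were the family members, the 3 tested miRNAs closest to each, the miRNA genes next to theirs, and the single tissue markers. The largest and smallest differences were named for miR-35 to miR-41 and the epidermal miRNAs, but not for the chromosomes, apart from miR-79. miR-38, miR-40 and miR-41 were named for their Buffer level, and miR-42 for its place in a scaling. miR-243 was named after its value was seen. Lists were miR-35 to miR-41, 5 epidermal heterochronic miRNAs, single tissue markers, and miRNAs by chromosome. The neuronal marker lsy-6 was not analysed here, nor were miRNA sequences.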

Additional observations from a re-analysis of the deposited data

How the results depend on the processing

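For miR-75 the log2 difference of 0.31 turned to -0.012 on the miRNA spots outside miR-35 to miR-42, and it was 0.53 from the replicate 1 scanner files. That setting changed the samples, the background correction (normexp) and the normalization (quantile) together. Replicate 1 alone was at 0.43 and quantile normalization alone at 0.45. Leaving out 1 biological sample gave -0.038 to 0.67 for miR-75, 0.62 to 1.12 for miR-79 and 0.13 to 0.98 for the difference between them. In these fits the lone sample was taken to vary like the other genotype. The scanner files gave 1.39 for miR-79. With the replicate block the limma adjusted p was 0.163 for miR-79 and 0.284 for miR-75, so no call of the family changed. Deviations of same-numbered samples went together over the 94 miRNAs (r = 0.711, miRNAs not being independent), which is a hint of pairing from the data and not from the design.

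Among all miRNAs, the replicate block called 2 higher in place of 1, and each limma fit without 1 biological sample called 0 higher (1 or 2 at an unadjusted p under 0.05). Restricting the test to the 59 oligos above the Buffer level on all 6 arrays called 3 lower in place of 7, since the other 4 were not tested. An alternative chosen after seeing the data used only array 2 of fem-2(b245ts) replicate 1, because array 1 had the widest spread between spots. It gave 0.76 for miR-79 and 0.40 for miR-75. With 2 samples a genotype and standard errors near 0.37, differences of the size seen for miR-75 were not detectable. That of miR-79 did not pass either, nor did the larger one of lin-4 at 1.18 (limma adjusted p = 0.299). A difference of the size seen for miR-79 could thus be missed too.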

Other observations

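The 4 spots of an oligo lie side by side, and the end spots were brighter than the inner spots. For miR-79 the end spots exceeded the inner spots by a mean of 0.39 on the log2 scale (0.28 to 0.54 over the 6 arrays), and for miR-75 by 0.29 (0.18 to 0.40). The brightest spot was at an end on 6 of 6 arrays for both, against a median of 5 of 6 arrays and 0.14 over the tested miRNAs. The pattern was seen on arrays of both genotypes, and each genotype difference compares the same printed positions. The lowest signal-to-noise score of a miR-75 spot was 1.55, on array 1 of fem-2(b245ts) replicate 1, while its highest on any array was 101. For miR-79 the scores ran from 6.91 to 138.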
